A study of Mus musculus with 6 samples.

Results

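CD39, encoded by *Entpd1*, opens an enzyme chain on the cell surface that turns extracellular ATP into adenosine, and 8 genes of this chain were described in T follicular helper (Tfh) cells with and without Bob1, the transcriptional coactivator encoded by *Pou2af1*. The 8 genes were *Entpd1*, *Nt5e*, *Adora2a*, *P2rx7*, *Ada*, *Adk*, *Dpp4* and *Slc29a1*, out of 23513 genes with a value in all 6 libraries. *Entpd1* was selected on its measured difference between these same groups in an earlier analysis of the same libraries. There it was listed with inhibitory receptor genes, although it encodes an enzyme, and had an unadjusted P below 0.05. The other 7 genes were added as its partners in the pathway. Their values for Bob1KO against WT are therefore given as a description, without a test. All mice carried FoxP3GFP/DTR and 2 floxed Bob1 alleles. The floxed Bob1 line was on a C57BL/6 background. The 3 Bob1KO libraries came from FoxP3GFP/DTR CD4Cre/+ Bob1fl/fl mice, and the 3 libraries labelled WT came from FoxP3GFP/DTR CD4+/+ Bob1fl/fl mice, which are floxed controls without Cre. Mice of 6 to 12 weeks, matched for sex, received 100 µg NP-CGG, a hapten-carrier immunogen, with complete Freund's adjuvant into the peritoneum. On day 7, CD3+ CD4+ CXCR5+ PD-1+ spleen cells negative for GFP and B220 were sorted, so that FoxP3+ regulatory T cells were gated out. The *Cd4* promoter drives Cre in thymocytes and in every CD4+ lineage T cell, so the deletion is not limited to Tfh cells or to the time after immunization. The study describes 3 experiments with several mice in each and does not tie a library to 1 animal.

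Extracellular ATP is a danger signal that opens the P2X7 channel and can drive T cells into death. CD39 removes phosphates from ATP and ADP to leave AMP, CD73 (encoded by *Nt5e*) turns AMP into adenosine, and adenosine acts on the receptor encoded by *Adora2a*, which raises cyclic AMP and restrains T cell activation. Adenosine is cleared by uptake through the nucleoside transporter ENT1 and by phosphorylation to AMP by adenosine kinase. It is also cleared by deamination to inosine by adenosine deaminase, which CD26 (encoded by *Dpp4*) can anchor to the surface of human cells. Whether mouse CD26 does so was not examined here. CD73 is known as an abundant surface protein of Tfh cells, and P2X7 is known to limit Tfh cell numbers in the gut.

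The libraries were those of Tfh cells with the targeted gene lost in 1 group. *Pou2af1* had 46.1, 32.5 and 34.4 FPKM (fragment counts scaled to transcript length and to the depth of the library, the unit of every level given here) in WT and 1.16, 0.237 and 0.317 FPKM in Bob1KO, with a log2 fold change of -4.65 (SE 0.256, adjusted P = 0.00311 from limma). Among 10042 genes tested it was 1 of 2 past an adjusted P of 0.05, which is 0.0199% of them. The other was *Pcsk1*, a prohormone convertase gene, with a log2 fold change of 2.40 (adjusted P = 0.0223), which was named after its value was seen. With the replicate number as a block in the fit, 1 gene passed, since *Pcsk1* no longer did (adjusted P = 0.186, higher in 3 of 3 pairs of equal number) and *Pou2af1* still did (adjusted P = 0.00532). The median log2 fold change of all genes was -0.003. Of 14 Tfh markers, 13 were tested and 0 passed the adjusted P. The sort markers were abundant in every library, with 300 to 466 FPKM for *Cd4*, 642 to 929 for *Cd3e*, 156 to 264 for *Cxcr5* and 275 to 607 for *Pdcd1*, the gene of PD-1, and *Tcf7*, a Tfh transcription factor, had 874 to 1071 FPKM. The files give no read totals, and the confidence bounds of single genes imply 18000000 to 25700000 mapped fragments per library.

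The level of the 8 transcripts spanned a wide range that was the same in outline in both groups. By the mean FPKM of the 6 libraries, the order was *Slc29a1* (132 ± 10.5, SD, n = 6), *Adk* (85.4 ± 15.2), *Nt5e* (78.1 ± 21.1), *P2rx7* (44.0 ± 7.52), *Dpp4* (42.7 ± 7.18), *Adora2a* (31.0 ± 6.07), *Ada* (2.96 ± 1.01) and *Entpd1* (2.62 ± 0.886). *Slc29a1* exceeded *Adk* in 6 of 6 libraries, *Nt5e* exceeded *P2rx7* in 6 of 6, *Dpp4* exceeded *Adora2a* in 6 of 6 and *Adora2a* exceeded *Ada* in 6 of 6. Other neighbours in this order were not separated by it, since *Adk* was above *Nt5e* in 4 of 6 libraries, *P2rx7* above *Dpp4* in 4 of 6 and *Ada* above *Entpd1* in 2 of 6. *Entpd1* was thus among the weakest transcripts of the chain it opens, above 12.2% of all tested genes in mean FPKM, whereas *Nt5e*, the next enzyme, was above 88.2% and *Slc29a1* above 93.6%.

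**Figure D1:**
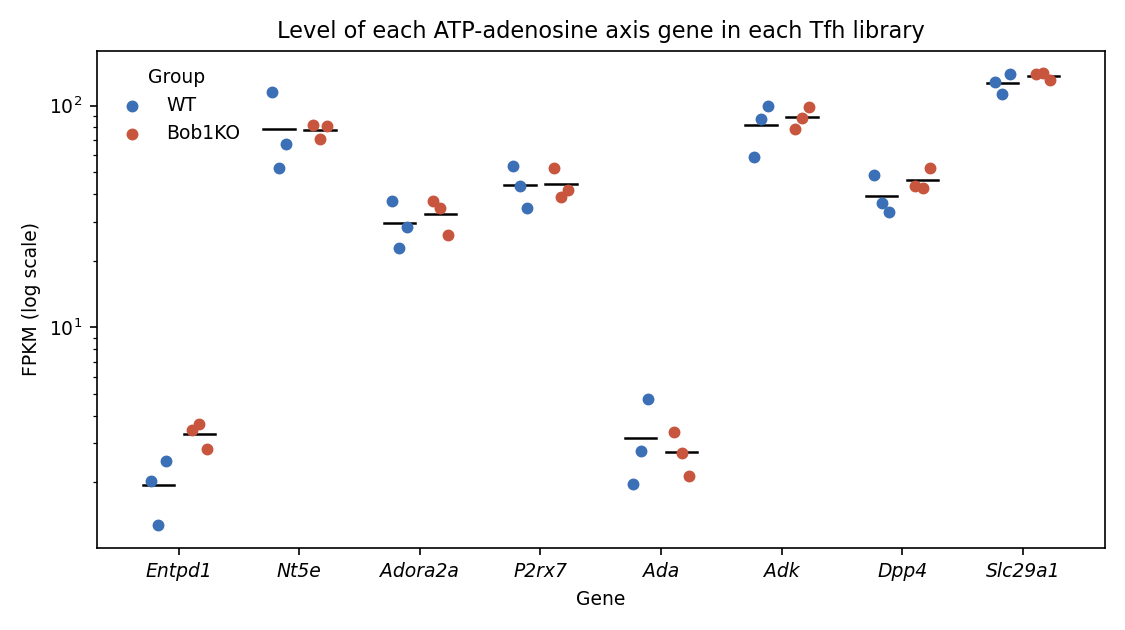
FPKM (log axis) of each of the 8 genes in each library, with 3 WT points in blue, 3 Bob1KO points in red and a black line at each group mean. *Entpd1* and *Ada* lie below 5 FPKM and the other 6 genes above 20 FPKM in every library, and *Entpd1* is the gene whose groups do not overlap.

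The assembled *Entpd1* transcript began near 1 of the gene's 2 annotated starts. The gene lies on the plus strand of chromosome 19 (GRCm38, 40612366 to 40741602), and RefSeq places starts at 40612366 and 40659770. In all 6 libraries the assembled *Entpd1* transcript began at position 40659794, which is 24 bases inside the downstream start, and that transcript did not include the upstream first exon in any library. It was assembled from an estimated 119 to 383 fragments, so a low level of RNA from the upstream start could go unseen. The windows from 250 bases before to 50 bases after each start (RefSeq, GRCm38.p6) are shown to set the assembled start beside the other, with CGTCA, the reverse complement of the short cAMP response element TGACG, in capitals. The upstream window is chr19:40612116-40612415 and the downstream window chr19:40659520-40659819, both on the plus strand, 5′ to 3′.
Upstream start: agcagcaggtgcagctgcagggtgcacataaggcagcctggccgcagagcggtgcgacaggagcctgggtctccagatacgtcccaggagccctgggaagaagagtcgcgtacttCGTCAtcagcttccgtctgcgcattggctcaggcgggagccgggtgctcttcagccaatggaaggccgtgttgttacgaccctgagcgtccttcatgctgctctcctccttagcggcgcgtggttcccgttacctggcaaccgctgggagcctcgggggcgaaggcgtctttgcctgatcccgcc
Downstream start: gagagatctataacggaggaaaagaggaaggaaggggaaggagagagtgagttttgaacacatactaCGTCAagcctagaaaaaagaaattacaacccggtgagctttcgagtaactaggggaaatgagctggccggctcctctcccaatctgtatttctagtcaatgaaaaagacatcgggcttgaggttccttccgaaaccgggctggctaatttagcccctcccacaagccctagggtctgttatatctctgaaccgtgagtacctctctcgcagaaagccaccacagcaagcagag
The downstream window had 48.7% G and C and 10 CpG dinucleotides, against 64% and 23 in the upstream window. The short element stood 183 bases before the downstream start and 135 bases before the upstream one. TGACG or CGTCA occurs in 20.8% of 32851 RefSeq windows of this length and in 4 of the 17 windows found for 7 of the 8 genes (*Adora2a* had no window in the table). The full palindrome TGACGTCA, which contains the short element on both strands, was in 0 of the 17 and in 1.79% of all windows. The octamer ATTTGCAT or its complement ATGCAAAT, the site to which Bob1 is recruited by Oct-1 and Oct-2, was in 0 of the 17 and in 1.74% of all windows. A match is a description of these letters, and a missing match speaks only of these windows.

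The *Entpd1* transcript had 2.04, 1.28 and 2.49 FPKM in the WT libraries and 3.43, 3.66 and 2.84 FPKM in the Bob1KO libraries. Every Bob1KO library was above every WT library, with the smallest distance between WT replicate 3 and Bob1KO replicate 3. The 95% Cufflinks intervals cover the uncertainty of the estimate in 1 library and not the spread between libraries. In these 2 libraries they ran from 2.17 to 2.82 and from 2.46 to 3.21 FPKM and overlapped. Group means were 1.94 ± 0.611 (SD, n = 3) in WT and 3.31 ± 0.423 (SD, n = 3) in Bob1KO, a ratio of 1.71. On the log2(FPKM + 1) scale, which understates changes of low genes, the fold change was 0.57 (SE 0.220), and it ranged from 0.40, without WT replicate 2, to 0.71, without WT replicate 3. Inside the gene, 4 separate fragments were assembled at 0.579 to 0.751 FPKM, 1 in WT replicate 1, 1 in WT replicate 2 and 2 in Bob1KO replicate 2, and are not part of these values. With transcripts assigned by their largest overlap of any size, the log2 fold change was 0.49. The authors' own group values, made on 1 common assembly, are 2.27 FPKM in WT and 3.92 in Bob1KO. *Entpd1* was 1 of the 8 genes without overlap between the groups. Across all genes tested, 5.84% did not overlap with Bob1KO higher and 4.89% with Bob1KO lower, and nothing is read from this count because the gene was selected on this contrast. In bulk libraries, more cells that carry CD39 and more *Entpd1* RNA per cell cannot be told apart.

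*Nt5e*, the gene of CD73, had 115, 52.6 and 67.0 FPKM in WT and 82.2, 70.6 and 81.1 FPKM in Bob1KO. WT replicate 1 was the highest and WT replicate 2 the lowest of the 6, so that the 3 Bob1KO libraries lay within the WT range. The means were 78.3 ± 32.8 (SD, n = 3) and 78.0 ± 6.43 (SD, n = 3), and the log2 fold change was 0.07 (SE 0.268). It was -0.17 (SE 0.238) without WT replicate 2 and 0.38 (SE 0.155) without WT replicate 1, so that its direction and size rest on single WT libraries. With 4250 to 8710 fragments per library, the spread of *Nt5e* in WT far exceeded its counting error. *Nt5e* transcript exceeded that of *Entpd1* by 56.5, 41.0 and 26.9 times in the WT libraries and by 24.0, 19.3 and 28.6 times in the Bob1KO libraries. Transcripts of both enzymes were therefore present in every library in very unequal amounts. Their ratio overlapped between the groups through WT replicate 3 and Bob1KO replicate 3.

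**Figure D2:**
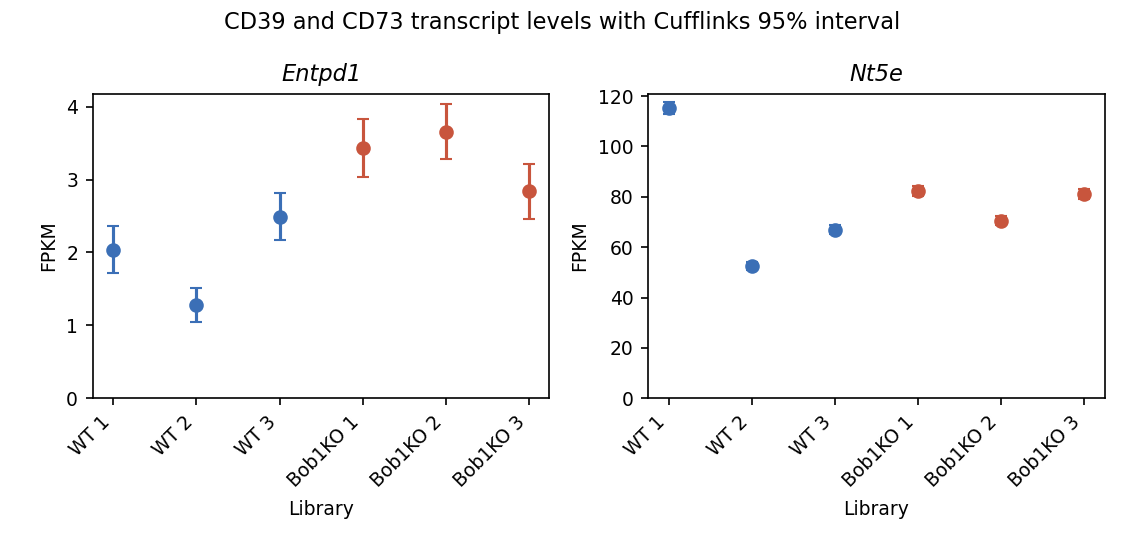
FPKM of *Entpd1* (left) and *Nt5e* (right) in each library (x axis), WT in blue and Bob1KO in red, with bars for the 95% interval that Cufflinks gives for 1 library. *Entpd1* runs from 1.28 to 3.66 FPKM with every Bob1KO point above every WT point, and *Nt5e* runs from 52.6 to 115 FPKM with both extremes in WT.

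The receptors at either end of the chain overlapped between the groups. *P2rx7*, the gene of the ATP-gated channel, had 53.2, 43.6 and 34.4 FPKM in WT and 52.5, 38.7 and 41.8 FPKM in Bob1KO. *Adora2a*, the gene of the high-affinity adenosine receptor of T cells, had 37.2, 22.9 and 28.5 FPKM in WT and 37.1, 34.4 and 26.0 FPKM in Bob1KO. Both genes were near their highest in replicate 1 of each group, while *P2rx7* was lowest in WT replicate 3 and *Adora2a* in WT replicate 2. The log2 fold change was 0.03 (SE 0.189) for *P2rx7* and 0.15 (SE 0.208) for *Adora2a*, each smaller than its standard error. With 1 library left out, that of *P2rx7* ran from -0.13 (without WT replicate 3) to 0.18 (without WT replicate 1) and that of *Adora2a* from -0.02 (without WT replicate 2) to 0.32 (without WT replicate 1). Within a library, *P2rx7* exceeded *Adora2a* 1.12 to 1.91 times in FPKM. In WT replicate 2, a separate fragment of 199 bases inside *P2rx7* was assembled at 12.1 FPKM and is not part of the value given.

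*Dpp4* and the genes that remove adenosine overlapped between the groups as well. *Slc29a1*, the gene of the transporter ENT1, had 128, 113 and 140 FPKM in WT and 139, 140 and 130 FPKM in Bob1KO, and it varied least of the 8 genes, with a coefficient of variation of 7.94% over the 6 libraries. *Adk*, the gene of adenosine kinase, had 58.7, 87.5 and 100.1 FPKM in WT and 78.9, 88.4 and 98.6 FPKM in Bob1KO. The lowest library of *Adk* was WT replicate 1 and the highest WT replicate 3, with Bob1KO between them. *Ada*, the gene of adenosine deaminase, had 1.97, 2.77 and 4.75 FPKM in WT and 3.39, 2.71 and 2.15 FPKM in Bob1KO, with 60 to 112 fragments per library. Its level was the most variable of the 8 genes, with a coefficient of variation of 34.2%, and WT replicates 1 and 3 were its extremes. *Dpp4*, the gene of CD26, had 48.6, 36.3 and 33.1 FPKM in WT and 43.3, 42.8 and 52.2 FPKM in Bob1KO. WT replicate 1 stood inside the Bob1KO range of *Dpp4* and the other 2 WT libraries below it.

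The log2 fold changes of these 4 genes were 0.11 (SE 0.114) for *Slc29a1*, 0.14 (SE 0.205) for *Adk*, -0.11 (SE 0.281) for *Ada* and 0.24 (SE 0.167) for *Dpp4*. With 1 library left out, *Adk* ran from -0.08 (without WT replicate 1) to 0.30 (without WT replicate 3) and *Ada* from -0.33 (without WT replicate 1) to 0.15 (without WT replicate 3). *Dpp4* ran from 0.12 (without WT replicate 3) to 0.40 (without WT replicate 1) and *Slc29a1* from 0.03 (without WT replicate 2) to 0.18 (without WT replicate 3). *Adk* transcript exceeded that of *Ada* by 21.1 to 31.6 times in WT and by 23.3 to 46.0 times in Bob1KO. Thus kinase RNA was far more abundant per length than deaminase RNA in both groups. The library kit keeps no strand, so reads from *Dpp4* and its antisense gene *Gm13561*, and from *Slc29a1* and its antisense gene *Gm17080*, cannot be told apart.

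The log2 fold change was above 0 for 7 of the 8 genes and below 0 for 1 and the median was 0.12. Among all 10042 genes tested, 4957 lay above 0 and 5085 below. Nothing is read from the count among the 8, since *Entpd1* was selected on this contrast. The fold change of 6 of the 8 was smaller than its standard error, and of 5 with the replicate block, where that of *Adk* (0.14) had an SE of 0.132. Between libraries of the same number, Bob1KO was higher in 3 of 3 pairs for *Entpd1*, in 2 of 3 for *Nt5e*, *Adk*, *Dpp4* and *Slc29a1* and in 1 of 3 for *Adora2a*, *P2rx7* and *Ada*. Single libraries weighed on several genes at once. WT replicate 2 held the lowest level of 4 genes (*Entpd1*, *Nt5e*, *Adora2a* and *Slc29a1*), WT replicate 1 the highest level of 3 (*Nt5e*, *Adora2a* and *P2rx7*) and the lowest of 2 (*Ada* and *Adk*), and no Bob1KO library held the lowest level of any of the 8.

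**Figure D3:**
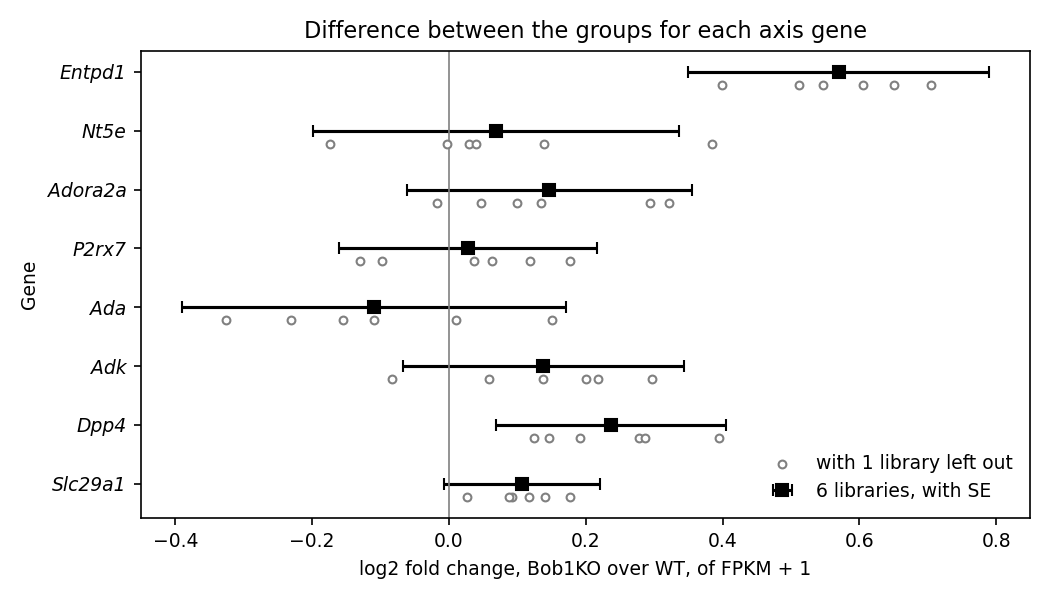
Log2 fold change of FPKM + 1, Bob1KO over WT (x axis), for each of the 8 genes, with black squares and bars for the value and standard error of 6 libraries and open circles for the 6 values with 1 library left out. *Entpd1*, at 0.57, stays between 0.40 and 0.71 when a library is left out, *Dpp4* runs from 0.12 to 0.40 and *Slc29a1* from 0.03 to 0.18, and the circles of the other 5 genes lie on both sides of 0.

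CD39 is also carried by B cells, myeloid cells and regulatory T cells, and markers of these cells were measured in the same libraries. The summed FPKM of 13 myeloid markers with a value, led by the neutrophil genes *S100a8*, *S100a9* and *Ngp*, ran from 568 to 1079 in WT and was 4695, 85.6 and 1571 in Bob1KO. Of these markers, 11 were tested and 0 passed the adjusted P. Bob1KO replicate 2, with the highest *Entpd1* level (3.66 FPKM), had the lowest myeloid sum, and in the other 5 libraries the order of *Entpd1* was the order of the myeloid sum. Without Bob1KO replicate 2 the log2 fold change of *Entpd1* was 0.51, and without Bob1KO replicate 1, the library with the highest sum, it was 0.55. *S100a8* alone was at 254 to 447 FPKM in WT and at 2027, 35.5 and 567 FPKM in Bob1KO.

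B cell markers summed to 23.7 to 40.7 FPKM in WT and 27.6 to 54.5 FPKM in Bob1KO over 11 genes with a value, of which 3 were tested and 0 passed. Most of the sum was *Cd22*, at 17.8 to 32.8 FPKM in WT and 25.0 to 44.9 FPKM in Bob1KO, followed by *Cd79b* and *Cd79a*, while the defining gene *Ms4a1*, which encodes CD20 and was named after its values were seen, stayed below 1 FPKM in every library. Of the regulatory T cell markers, *Foxp3*, also named after its values were seen, is listed at 0 in all 6 libraries. A listed 0 in these files can also be a value that was not estimated. The 8 regulatory T cell markers summed to 337 to 440 FPKM in WT and 382 to 431 FPKM in Bob1KO, mostly from *Tnfrsf18*, *Ctla4* and *Ikzf2*. The rest of the list was named after its values were seen. Over the 6 libraries, *Nrp1* had 30.9 to 43.5 FPKM, *Ikzf4* 2.11 to 5.38, *Il2ra* 0.631 to 1.71 and *Lrrc32* 0.521 to 1.08. Which cells these transcripts came from was not tested. Of the 8 markers, 6 were tested and 0 passed the adjusted P. The 6 plasma cell markers, led by *Xbp1*, *Jchain* and *Mzb1*, summed to 77.8 to 106 FPKM in WT and 95.3 to 134 FPKM in Bob1KO. Dendritic cell markers were all below a mean of 1 FPKM, with *Clec9a* (named after its values were seen) listed at 0, and summed to 0.828 to 2.43 FPKM in WT and 0.777 to 1.51 FPKM in Bob1KO. Markers of NK and CD8+ T cells, led by *Nkg7*, *Klrb1c* and *Eomes*, summed to 106 to 157 FPKM in WT and 94.0 to 147 FPKM in Bob1KO. None of the 10 markers tested in these 3 lists passed the adjusted P. The part of such cells in the *Entpd1* values was not tested.

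**Figure D4:**
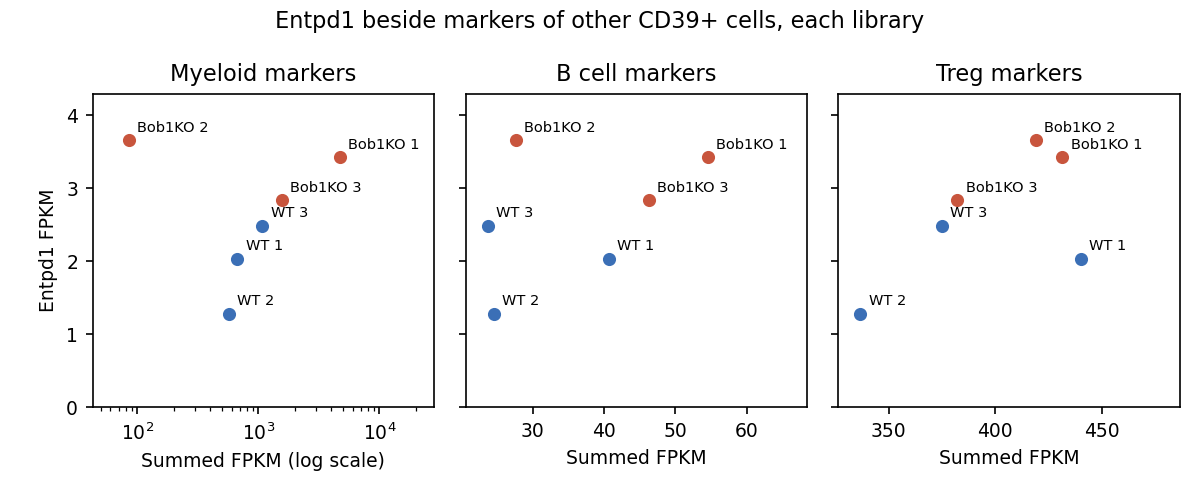
*Entpd1* FPKM (y axis) against the summed FPKM of myeloid (log axis), B cell and regulatory T cell markers (x axes), 1 point per library, WT in blue and Bob1KO in red. Bob1KO 2 has the highest *Entpd1* level at the lowest myeloid sum, and the other 5 points have the same order on both axes of the myeloid panel.

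Around the 8 genes, 107 further genes of the axis were listed, of which 65 were tested, 30 had a mean below 1 FPKM, 8 were listed at 0 in all libraries and 4 had no value of their own. Of the 65, 31 lay above 0 and 34 below 0 in log2 fold change, the median was -0.01, and 0 passed the adjusted P. An unadjusted P below 0.05 was found for 5 of the 65, or 7.69%, against 5.4% of all genes tested, while 5 (7.69%) did not overlap with Bob1KO higher, against 5.84% of all genes, and 5 (7.69%) with Bob1KO lower, against 4.89%.

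Other ectoenzymes had 11 of 20 genes tested, 4 above and 7 below 0, with a median of -0.09. *Enpp1*, which also cleaves extracellular ATP, had 4.06, 5.59 and 4.34 FPKM in WT and 5.66, 7.49 and 7.54 FPKM in Bob1KO, with a log2 fold change of 0.48 (SE 0.182, adjusted P = 0.908 from limma). *Acpp*, an acid phosphatase that can also make adenosine from AMP, had 3.46, 3.72 and 3.86 FPKM in WT and 1.59, 2.79 and 1.78 FPKM in Bob1KO, with a log2 fold change of -0.64 (SE 0.205, adjusted P = 0.863). Neither gene overlapped between the groups and neither passed the test. The highest levels of the list were those of *Art2b*, an ADP-ribosyltransferase gene whose product can gate P2X7, at 30.3 to 66.0 FPKM, and of *Entpd6*, a relative of *Entpd1*, at 23.3 to 33.4 FPKM. *Art2b* was lowest in replicate 2 of each group, with a log2 fold change of 0.01 (SE 0.330). The other surface members of the CD39 family, named here after their values were seen, had low levels, with at most 0.307 FPKM for *Entpd2* and 0.221 FPKM for *Entpd3*, and *Entpd8* listed at 0.

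Among other ATP receptors and ATP release genes, 9 of 24 were tested, 7 above and 2 below 0, with a median of 0.09 and 0 past the adjusted P. *Slc17a9*, which loads ATP into vesicles, had 6.73, 9.49 and 12.41 FPKM in WT and 12.03, 15.85 and 14.03 FPKM in Bob1KO, with a log2 fold change of 0.53 (SE 0.221, adjusted P = 0.915). WT replicate 3 overlapped with Bob1KO replicate 1, while Bob1KO was higher in 3 of 3 pairs of libraries with the same number. *Panx1*, the ATP release channel pannexin-1, was highly even at 49.8 to 55.4 FPKM in all 6 libraries, and *Lrrc8c*, a volume-regulated channel subunit, had 27.6 to 43.5 FPKM. Of the other P2X receptors, named after their values were seen, *P2rx4* had 11.5 to 19.4 FPKM and *P2rx1*, *P2rx2* and *P2rx5* stayed below 0.5 FPKM, with *P2rx3* and *P2rx6* listed at 0.

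Downstream of the adenosine receptor, 21 of 29 genes of adenosine receptors and cyclic AMP signalling were tested, 8 above and 13 below 0, with a median of -0.04. *Adcy7*, an adenylyl cyclase gene of lymphocytes, had 54.7, 53.8 and 47.9 FPKM in WT and 79.5, 95.8 and 65.8 FPKM in Bob1KO. Every Bob1KO library was above every WT library, with a log2 fold change of 0.60 (SE 0.153), the highest of the 65 genes, and it did not pass the test (adjusted P = 0.632). *Prkar1a*, which encodes a regulatory subunit of protein kinase A, had 484, 370 and 495 FPKM in WT and 380, 347 and 304 FPKM in Bob1KO, with 1 WT library inside the Bob1KO range, Bob1KO lower in 3 of 3 pairs and a log2 fold change of -0.38 (SE 0.156, adjusted P = 0.915). The most abundant genes of the list were *Gnas*, the stimulatory G protein subunit, at 457 to 536 FPKM, and *Gnai2*, an inhibitory subunit, at 379 to 427 FPKM, with log2 fold changes of -0.03 (SE 0.121) and -0.03 (SE 0.105). The other adenosine receptors, named after their values were seen, were at most at 0.583 FPKM for *Adora2b* and 0.0661 FPKM for *Adora3*. *Adora1* is listed at 0, which in these files can also be a value that was not estimated.

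In nucleoside transport and purine salvage, 24 of 34 genes were tested, 12 above and 12 below 0, with a median of -0.003 and no gene at an unadjusted P below 0.05. *Nt5c*, a cytosolic nucleotidase gene, had 135 to 201 FPKM in WT and 141 to 161 FPKM in Bob1KO, and *Aprt*, which returns adenine to AMP, had 91.1 to 108 FPKM in WT and 93.1 to 119 FPKM in Bob1KO. Both overlapped between the groups.

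**Figure D5:**
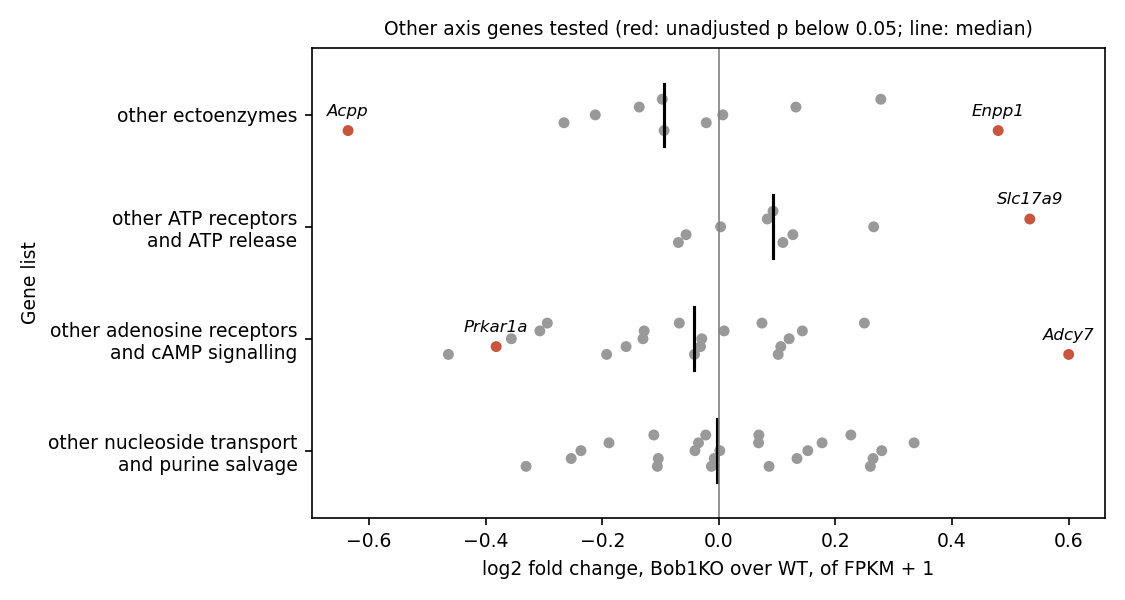
Log2 fold change of FPKM + 1, Bob1KO over WT (x axis), of the 65 other axis genes tested, by list (y axis), with a black line at the median of each list and red points for the 5 genes with an unadjusted P below 0.05. The list medians run from -0.09 to 0.09, the red points are *Acpp*, *Enpp1*, *Slc17a9*, *Prkar1a* and *Adcy7*, and none passed the adjusted P.

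The genes whose profile over the 6 libraries was most like that of *Entpd1* were named by the root mean square difference of log2(FPKM + 1), centred on each gene's mean, over 10034 genes. They were *Tiam1*, a guanine nucleotide exchange factor gene, at 0.0664, *Prelid2* at 0.0708, *Gas2l1* at 0.0855, *Ccdc88c* at 0.114 and *Socs5*, a suppressor of cytokine signalling gene, at 0.124. *Tiam1*, the closest, had 8.94, 6.19 and 10.7 FPKM in WT and 13.1, 15.9 and 11.5 FPKM in Bob1KO. Like *Entpd1*, each of the 5 was lowest in WT replicate 2 and had no overlap between the groups, which the measure favours since it was taken over the same 6 libraries.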

How the data were processed

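RNA of sorted splenic Tfh cells (3 WT and 3 Bob1KO libraries, SMART-Seq v4 kit, unstranded) was processed by the authors, per the submitters' processing notes and the methods, with cutadapt 1.2.1, TopHat2 2.0.13 and Cufflinks 2.2.1 on GRCm38/mm10. The deposited values are FPKM with confidence bounds, assembled by the authors separately in each library, and a series table gives the authors' group FPKM on a common assembly. That table's fold change, statistic, P and q columns were not used. There were 0 columns of other samples.

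Assembled transcripts were assigned to gene spans (RefSeq GRCm38.p6 and GENCODE vM21) where they shared at least 0.5 of the joint length, and FPKM were summed per gene, which assigned 89.8% to 91.0% of each library's FPKM. FPKM are not counts, so log2(FPKM + 1) of genes with a mean of at least 1 FPKM was tested with limma 3.58.1 (R 4.3.3, trend, two-sided, Benjamini-Hochberg over 10042 genes, threshold 0.05), and the script was tested on simulated data. An exact permutation test of 3 against 3 cannot go below P = 0.1. Fragments behind a value were computed from the confidence bounds as if these held counting error only, so they are estimates. Python 3.11.15 and pandas 2.3.3 were used for the tables.

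Replicate numbers in the labels were checked as pairs. Deviations from the group mean correlated at 0.108, 0.153 and 0.103 across genes for equal numbers, and the correlations were negative for the 6 other pairs. Deviations sum to 0 within a group, so the negative values follow in part from the positive ones. Equal numbers may thus mark pairs, but these low correlations do not settle it. The fit without the block stayed the reported one because the methods state no pairing. The paper took the specimens from several experiments in each mouse group and does not say whether WT and Bob1KO libraries shared an experiment. The reported SE and P values therefore leave out possible pairs, and *Pcsk1* did not pass with the block. The sources used here do not tie libraries to animals, so P values measure the spread between these libraries, which may in part be technical.

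The 8 genes and all lists were chosen with earlier results of these data known. Named genes were the 8, *Pou2af1*, in each axis list those past the adjusted or unadjusted P and the 2 with the highest mean FPKM, in each marker list the 3 highest and the sort markers, and the 5 most like *Entpd1*. The value of 1 B cell marker is not reported here. Genes beyond this rule are said to be named after their values were seen. Alternatives were the pseudocount, the filter, scaling, overlap, variance model, replicate block, single libraries left out, both replicate 2 libraries left out and the authors' group FPKM.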

Additional observations from a re-analysis of the deposited data

How the results depend on the processing

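The count of 2 genes past the adjusted P became 1 with a pseudocount of 0.1, 1 with a mean of at least 5 FPKM and 7 without both replicate 2 libraries, and it ran from 1 to 7 with 1 library left out (1 without Bob1KO replicate 1 or 3, 4 without WT replicate 3, 7 without WT replicate 1). With the replicate number as a block, 1 gene passed and 0 other axis genes did. Fold changes cannot move in this balanced fit, but the SE fell for *Nt5e* (0.268 to 0.199) and *Adk* (0.205 to 0.132) and was 0.239 in place of 0.220 for *Entpd1*. The cause of these shifts was not tested. The log2 fold change of *Entpd1* moved from 0.57 to 0.26 with a pseudocount of 5, a scale on which a gene of 2 to 4 FPKM changes less by construction, was 0.34 without both replicate 2 libraries and reached 0.78 with a pseudocount of 0.1. With 1 library left out it ran from 0.40 to 0.71. *Entpd1* and *Ada* have no value under the filter of 5 FPKM. The sign was opposite in 4 of 18 alternatives for *Nt5e*, 4 of 18 for *P2rx7*, 2 of 18 for *Adora2a*, 2 of 17 for *Ada*, 1 of 18 for *Adk* and 0 of 18 for *Dpp4* and *Slc29a1*, of which *Slc29a1* came to 0.007 without both replicate 2 libraries. Depth limits *Ada*, with 60 to 112 fragments a library, and *Entpd1*, with 119 to 383, more than the other 6 genes, which have at least 1070.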
